A study of Mus musculus with 6 samples.

Results

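The transcription factors that give the gut epithelium its intestinal and regional identity were measured in crypts of the mouse small intestine, the glands at the base of the villi where stem cells divide beside Paneth cells. The 8 members, Cdx1, Cdx2, Gata4, Gata6, Pdx1, Hnf4a, Hnf4g and Onecut2, were taken by gene symbol from a table of 17526 genes, and all 8 were in it. The 3 knockout libraries, named vko, came from mice whose genotype label is a knockout of Fpr2 in the intestinal epithelium. The 3 floxed control libraries, named flox, came from mice of the Fpr2 f/f line, labelled WT. FPR2 is a G protein-coupled receptor that senses formylated peptides, and the study's title concerns its bearing on the proliferation and differentiation of crypt stem cells. The driver of the deletion, the age, sex and strain of the mice, and the stretch of small intestine from which crypts were taken are not given in the labels. The targeted gene was not analysed here, which leaves the genotypes unchecked.

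CDX1 and CDX2 are caudal-type homeobox proteins. In the gut CDX2 switches on intestinal genes and holds back stomach genes, and its binding core is rich in T and A. HNF4A and its paralog HNF4G are nuclear receptors that drive brush border and lipid-handling genes in enterocytes, and in the mouse intestine they act redundantly. GATA4 and GATA6 are zinc finger proteins. GATA4 is made in the proximal and middle small intestine and is absent from the distal ileum, where bile acid genes are active, whereas GATA6 is made along the whole length. PDX1 marks the duodenum and pancreas, and ONECUT2 is a cut-homeobox factor of the duodenum.

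The promoter windows below show the start sites of 2 members and of 2 classical target genes, so that the letters these factors read can be seen beside the levels that follow. RefSeq windows on GRCm38.p6 matched Cdx2, Hnf4a and Pdx1 among the members; each runs from 250 bases before to 50 bases after a start site, 5′ to 3′ on the gene's strand. Capitals mark exact matches on either strand. TTTAT is the core of sites for CDX proteins and was in 40.0% of 32851 promoter windows. AGATAA is read by the zinc finger factors of the list and was in 11.2%. ATCAAT, read by ONECUT factors, was in 7.54%. CAAAGTC, of the HNF4 repeat, is in 4.44% of windows and had no match in those printed. Cdx2 lies at chr5:147307200-147307499 on the minus strand. The upstream start of Hnf4a has its window at chr2:163506607-163506906 on the plus strand. Sis, which encodes sucrase-isomaltase, lies at chr3:72967814-72968113 on the minus strand, and Lct, which encodes lactase, at chr1:128328269-128328568 on the minus strand.
Cdx2: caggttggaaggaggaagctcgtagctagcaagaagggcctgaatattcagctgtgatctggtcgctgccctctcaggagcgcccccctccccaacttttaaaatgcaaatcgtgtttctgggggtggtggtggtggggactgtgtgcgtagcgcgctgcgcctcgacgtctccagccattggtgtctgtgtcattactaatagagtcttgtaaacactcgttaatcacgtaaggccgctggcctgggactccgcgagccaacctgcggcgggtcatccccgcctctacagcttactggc
Hnf4a upstream: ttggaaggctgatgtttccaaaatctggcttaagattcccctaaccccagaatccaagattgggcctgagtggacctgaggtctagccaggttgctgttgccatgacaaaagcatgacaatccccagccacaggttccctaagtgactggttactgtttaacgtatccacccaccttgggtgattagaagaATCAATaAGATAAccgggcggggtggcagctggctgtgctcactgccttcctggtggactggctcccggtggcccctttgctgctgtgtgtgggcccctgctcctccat
Sis: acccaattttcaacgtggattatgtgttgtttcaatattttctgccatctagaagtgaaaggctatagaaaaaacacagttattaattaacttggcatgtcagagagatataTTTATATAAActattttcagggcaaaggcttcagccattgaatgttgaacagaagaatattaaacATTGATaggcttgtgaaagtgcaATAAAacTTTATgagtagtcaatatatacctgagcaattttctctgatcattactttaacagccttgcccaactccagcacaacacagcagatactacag
Lct: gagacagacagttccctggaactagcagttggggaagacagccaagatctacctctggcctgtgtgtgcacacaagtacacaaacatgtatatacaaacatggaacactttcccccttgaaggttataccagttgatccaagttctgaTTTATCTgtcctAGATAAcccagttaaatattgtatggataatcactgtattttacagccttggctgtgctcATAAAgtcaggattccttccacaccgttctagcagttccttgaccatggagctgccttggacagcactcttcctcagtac
The Sis window held 4 matches to the CDX core, and the Lct window 2, of which 1 overlapped a GATA match. Lct had 2 GATA matches. The upstream Hnf4a window held an ONECUT and a GATA match side by side, and Sis held 1 ONECUT match. None of these letters are in the Cdx2 window. A match is a string of letters and not a measured binding site. Counts were per gene, so the start sites of Hnf4a were not told apart.

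Estimated counts per library summed to between 16542933 and 16859902 in knockouts and between 11108511 and 16695304 in floxed controls (exact two-sided permutation p = 0.2, where 0.1 is the smallest that 3 libraries against 3 allow). Whether each library stands for its own animal is not stated, and the p-values therefore reflect only a spread between libraries that could be technical. Markers of gut epithelium and of crypt stem cells were detected. Epcam, the epithelial adhesion molecule, stood at 1352, 1351 and 1338 CPM (library-scaled counts, with library sizes adjusted by TMM) in knockouts 1, 2 and 3, against 1048, 1257 and 1104 CPM in floxed controls 1, 2 and 3. Sox2, the stomach factor, had at most 2 counts in a library. The 12 crypt stem cell markers summed to between 1761 and 2412 CPM in knockouts and to between 2488 and 3201.5 CPM in floxed controls. Their log2 fold changes had a median of -0.33, with 0 positive and 12 negative, while 6722 of all 12943 genes tested were negative. By edgeR's quasi-likelihood test 0 of the 12 passed an adjusted p of 0.05, and DESeq2 called 2, against 0.0155% and 2.69% of all genes. Before adjustment 6 were lower at a p under 0.05 by edgeR, against 9.63% of all genes. Markers of other cell types differed in level between libraries. T cell markers (14 genes in the table) summed to between 72.7 and 93.4 CPM in knockouts and to 309, 80.4 and 254 CPM in floxed controls 1, 2 and 3. The 15 Paneth cell markers summed to between 25587 and 39824 CPM in knockouts and to between 76096 and 149590 CPM in floxed controls.

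None of the 7 identity factors high enough to test passed the test between knockout and floxed control crypts. By edgeR's quasi-likelihood test 0 of 7 passed an adjusted p of 0.05 over the 12943 genes tested, where 0.0155% of all genes passed. Before adjustment 0 of 7 had a p under 0.05, against 13.7% of all genes, and DESeq2 called 0 of 7, against 2.69% of all genes. The 7 log2 fold changes had a median of 0.055, with 4 positive and 3 negative, and the median of all genes tested was -0.013. The CPM of knockouts and floxed controls overlapped for each of the 8 members, while 17.3% of all tested genes had groups that did not overlap. For 6 of 7 members the 95% interval of the fold change lay inside a 2-fold difference in either direction, as it did for 75.2% of all genes tested; the exception was Onecut2. In bulk RNA, fewer cells of a type and less RNA per cell cannot be told apart.

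**Figure D1:**
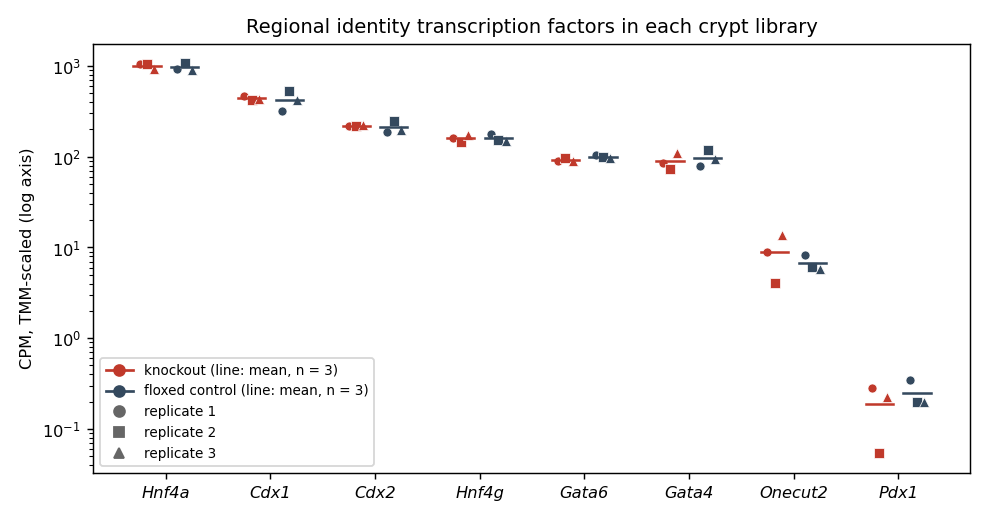
CPM of each member in each library, on a log axis, with knockouts in red left of floxed controls in dark blue, a mark shape for each replicate number and a line at the mean of 3 libraries. The groups overlap for each of the 8 members; Onecut2 spreads from 4.08 to 13.6 CPM among the knockouts and Pdx1 is under 1 CPM throughout.

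Cdx2, the intestinal master regulator (gene 12591, chr5:147300805-147307270 on GRCm38 in GENCODE M21, as for the genes below), had 219, 218 and 224 CPM in knockouts 1, 2 and 3, against 187, 249 and 199.5 CPM in floxed controls 1, 2 and 3. The knockouts sat close together, inside the range of the floxed controls. The means were 221 ± 2.92 CPM in knockouts and 212 ± 32.9 CPM in floxed controls (SD, n = 3 each). The log2 fold change was 0.059 ± 0.17 (SE), with an adjusted p of 0.922 by edgeR and a fold between 0.803 and 1.35 in the 95% interval.

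Cdx1, its paralog (gene 12590, chr18:61018862-61036199), had 468, 419 and 439 CPM in knockouts and 322, 525 and 426 CPM in floxed controls. The lowest and the highest of the 6 libraries were both floxed controls. Its log2 fold change was 0.058 ± 0.21 (adjusted p = 0.939 by edgeR), with a 95% interval of 0.754- to 1.44-fold. The count ratio of Cdx1 over Cdx2 was 2.13, 1.92 and 1.96 in knockouts 1, 2 and 3 and 1.72, 2.11 and 2.14 in floxed controls 1, 2 and 3. This balance of the paralogs overlapped between the groups. Cdx1 estimated counts were not whole numbers in 6 libraries, so reads shared with other sequences may be split in them; the same holds for Hnf4g.

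Hnf4a, the nuclear receptor of enterocyte genes (gene 15378, chr2:163506808-163572910), had the most counts of the 8. It stood at 1052, 1042 and 925 CPM in knockouts and at 927, 1068 and 912 CPM in floxed controls. The means were 1006 ± 70.7 CPM in knockouts and 969 ± 85.9 CPM in floxed controls, a log2 fold change of 0.055 ± 0.20 (adjusted p = 0.939 by edgeR). Its 95% interval ran from 0.766- to 1.41-fold.

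Hnf4g, its paralog in gut epithelium (gene 30942, chr3:3508030-3658052), had 161, 146 and 173 CPM in knockouts, against 178, 155 and 151 CPM in floxed controls. The order of the libraries showed no split by genotype. On the log2 scale the fold change was -0.012 ± 0.16 (adjusted p = 0.984 by edgeR), with an interval of 0.778- to 1.27-fold. The count ratio of Hnf4g over Hnf4a was 0.153, 0.140 and 0.187 in knockouts and 0.192, 0.145 and 0.166 in floxed controls.

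Gata4, the proximal factor (gene 14463, chr14:63198922-63271692), had 85.8, 72.6 and 111 CPM in knockouts 1, 2 and 3, against 79.7, 119.9 and 94.1 CPM in floxed controls. It varied more between libraries of a group than Gata6, with a coefficient of variation over the 6 libraries of 19.6%, against 6.45% for Gata6. The log2 fold change of Gata4 was -0.12 ± 0.21 (adjusted p = 0.850 by edgeR), with an interval of 0.668- to 1.26-fold.

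Gata6, made along the whole small intestine (gene 14465, chr18:11052064-11085635), had 89.7, 97.5 and 89.6 CPM in knockouts and 106, 99.6 and 96.3 CPM in floxed controls. Knockout 2 lay above floxed control 3, and the other knockouts lay below each floxed control. Gata6 had a log2 fold change of -0.13 ± 0.14 (adjusted p = 0.765 by edgeR), with an interval of 0.735- to 1.14-fold. A non-coding transcript annotated in GENCODE M21 overlaps Gata6 exons on the opposite strand over 93 bases, and the strand use of the kit is not stated. The count ratio of Gata6 over Gata4 was 1.05, 1.34 and 0.805 in knockouts and 1.33, 0.831 and 1.02 in floxed controls, on both sides of 1 in each group.

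Onecut2, the duodenal cut-homeobox factor (gene 225631, chr18:64340020-64400987), was the tested member with the widest spread over the 6 libraries. Its counts were 157, 76 and 243 in knockouts 1, 2 and 3 and 94, 94 and 59 in floxed controls, or 8.86, 4.08 and 13.6 CPM against 8.21, 6.16 and 5.81 CPM. Both the highest and the lowest library were knockouts. Onecut2 had a log2 fold change of 0.39 ± 0.37 (adjusted p = 0.700 by edgeR), and its interval of 0.744- to 2.32-fold includes a doubling. Without knockout 3 the log2 fold change was -0.054, and without knockout 2 it was 0.74, neither of them called.

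Pdx1, the duodenal and pancreatic homeobox factor (gene 18609, chr5:147269959-147275848), was too low to test. It had 5, 1 and 4 counts in knockouts 1, 2 and 3 and 4, 3 and 2 counts in floxed controls. The sums were 10 counts in knockouts (exact 95% Poisson interval 4.80 to 18.4) and 9 counts in floxed controls (4.12 to 17.1), intervals that cover counting error only. A difference was not detectable at this depth.

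**Figure D2:**
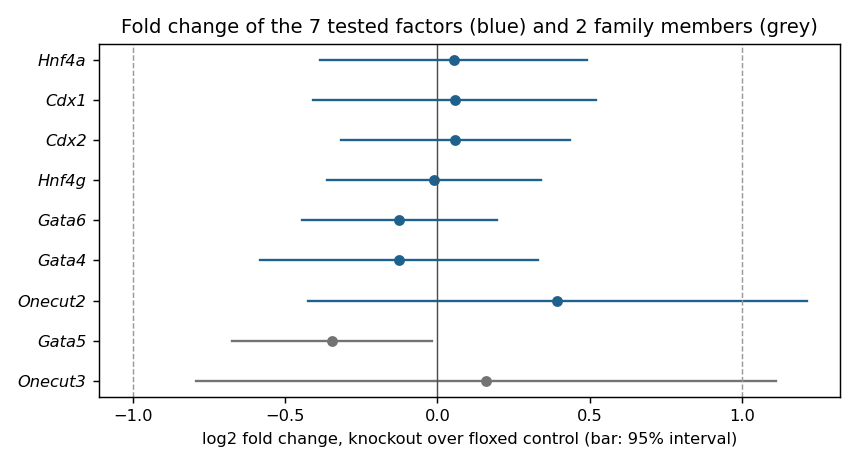
Log2 fold change of knockout over floxed control with its 95% interval for the 7 tested identity factors (blue) and for Gata5 and Onecut3 (grey); dashed lines mark a 2-fold difference. Each blue interval includes 0, and that of Onecut2 alone among them reaches past the upper dashed line.

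Per kilobase of annotated exon (GENCODE M21 basic), Cdx1 and Hnf4a were the most abundant members. Cdx1 averaged 252 ± 14.1 CPM per kilobase in knockouts and 242 ± 58.0 in floxed controls, and Hnf4a 231 ± 16.2 in knockouts and 222 ± 19.7 in floxed controls. Their libraries overlapped in each group, so these levels were not ordered beyond the spread. Cdx2 followed at 97.5 ± 1.29 CPM per kilobase in knockouts and 93.6 ± 14.5 in floxed controls, and then Hnf4g at 60.9 ± 5.23 in knockouts and 61.3 ± 5.53 in floxed controls. Gata6 (28.5 ± 1.4015 in knockouts and 31.1 ± 1.51 in floxed controls) and Gata4 (24.7 ± 5.39 in knockouts and 26.9 ± 5.59 in floxed controls) overlapped in each group. Onecut2, at 0.545 ± 0.293 in knockouts and 0.414 ± 0.0798 in floxed controls, lay above Pdx1, at 0.0864 ± 0.0550 in knockouts and 0.115 ± 0.0408 in floxed controls. The level of Onecut2 rests on an exon length of 16234 bases, and levels per kilobase depend on which isoforms the crypts use.

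Of 6 further members of these families measured, 2 were high enough to test, Gata5 and Onecut3. Gata5, a GATA factor of differentiated gut epithelium, had 89.4, 83.4 and 79.0 CPM in knockouts 1, 2 and 3, against 109, 97.9 and 113 CPM in floxed controls. The groups did not overlap, which 10.3% of all tested genes shared in the same direction. The log2 fold change of Gata5 was -0.35 ± 0.15, with an unadjusted p of 0.0414 and an adjusted p of 0.344 by edgeR. Onecut3 was under 1.1 CPM in each library, with a log2 fold change of 0.16 ± 0.43. Cdx4, Gata1, Gata2 and Gata3 were too low to test.

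Among 23 tested transcription factors of endoderm and enterocytes outside the 8, 0 passed by edgeR. DESeq2 called 3 of them, against 2.69% of all genes. Before adjustment, 5 were lower and 0 higher at a p under 0.05. Of all genes 9.63% were lower and 4.09% higher at that unadjusted p. The median log2 fold change was -0.027. Klf5, a Krüppel-like factor of dividing crypt cells, had a log2 fold change of -0.24 ± 0.21. The 4 smallest p-values belonged to Foxa3, Foxa2 and Prox1, with log2 fold changes of -1.03 ± 0.21, -0.84 ± 0.20 and -1.46 ± 0.39, and to Zfpm1, a cofactor that binds GATA proteins, with -0.53 ± 0.16 (adjusted p = 0.191 by edgeR). FOXA3 and FOXA2 are forkhead factors of secretory cells, and PROX1 is found in endocrine and tuft cells. Among enteroendocrine markers 16 of 16 log2 fold changes were negative, with a median of -0.82, while 6722 of all 12943 genes tested were negative. Of these 16, edgeR called 0 and DESeq2 called 4, against 0.0155% and 2.69% of all genes. At the unadjusted p 13 were lower, against 9.63% of all genes. The summed level of these markers was 308 to 420.0 CPM in knockouts and 445 to 727 CPM in floxed controls. Their part in the Foxa2, Foxa3 and Prox1 values was not tested. Without floxed control 2, edgeR called 4 transcription factors of the list lower (Foxa2, Foxa3, Prox1 and Klf4) and 10 of the 16 enteroendocrine markers. In that setting it called 955 of all genes, 188 of them higher. The enteroendocrine median was -0.21 without floxed controls 1 and 3, which leaves 1 control library. The median of the transcription factors was -0.10 without floxed control 2 and 0.056 without floxed control 1.

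None of the genes of the proximal small intestine passed the test over all genes. Of 16 tested genes 12 had a negative log2 fold change. At an unadjusted p under 0.05, 6 were lower and 0 higher, against 9.63% and 4.09% of all genes. By edgeR 0 passed, and DESeq2 called 3, against 2.69% of all genes. The median was -0.49, against -0.013 for all genes. Cybrd1, the duodenal ferric reductase, had 6.43, 5.53 and 2.69 CPM in knockouts 1, 2 and 3, against 19.3, 10.1 and 27.3 CPM in floxed controls (log2 -1.94 ± 0.39, adjusted p = 0.0952 by edgeR). Its groups did not overlap, which 10.3% of all tested genes shared in the same direction. Slc2a5, the fructose transporter, had 30.02, 34.6 and 36.9 CPM in knockouts and 63.4, 45.4 and 84.3 CPM in floxed controls (log2 -0.93 ± 0.22, adjusted p = 0.130). Slc2a2, the basolateral sugar transporter, and Sct, the hormone secretin, had log2 fold changes of -1.09 ± 0.33 and -0.78 ± 0.25, and the part of the enteroendocrine markers in the Sct value was not tested. Lct, whose promoter is shown above, had 52.4, 62.9 and 117 CPM in knockouts and 165, 88.5 and 178 CPM in floxed controls, with overlapping groups (log2 -0.90 ± 0.32, adjusted p = 0.255). Fabp1, the liver-type fatty acid binding protein, ran from 39.2 to 199.99 CPM in knockouts and from 81.1 to 134 CPM in floxed controls. Apoa4, of lipid export, ran from 134 to 843 CPM in knockouts and from 212 to 549.95 CPM in floxed controls (log2 0.24 ± 0.62).

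With 1 library left out the proximal median ran from -0.97 without knockout 3 to -0.22 without floxed control 3, and it was -0.24 without knockout 2. It was 0.017 without floxed controls 1 and 3, which leaves 1 control library. Without floxed control 2, edgeR called 4 genes of the list lower (Lct, Cybrd1, Slc2a5 and Slc2a2) and called 955 of all genes. Floxed controls 1 and 3 were the libraries high in T cell markers given above, and the part of those cells in the values was not tested.

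Genes of the distal small intestine showed no common direction. Of 14 tested, 8 were negative and 6 positive, with a median of -0.048. Before adjustment 2 were lower and 1 higher at a p under 0.05, against 9.63% and 4.09% of all genes. By edgeR 0 were called and by DESeq2 1, against 0.0155% and 2.69% of all genes. The lower ones were the hormone genes Gcg and Pyy (log2 -0.87 ± 0.20 and -0.56 ± 0.20), and the part of the enteroendocrine markers given above in these values was not tested. Gcg was called lower by edgeR without floxed control 2, where 955 of all genes were called. The median of the list was 0.12 without floxed control 3. The higher one was Fgf15, the ileal hormone that restrains bile acid synthesis. Fgf15 had 1.07, 4.51 and 0.672 CPM in knockouts 1, 2 and 3, against 0.611, 0.656 and 0.886 CPM in floxed controls (log2 1.55 ± 0.68, adjusted p = 0.351 by edgeR). The value in knockout 2 stood apart from the other 5 libraries. Slc10a2, the ileal bile acid transporter, was also highest in knockout 2, at 30.2, 72.5 and 34.6 CPM in knockouts and 44.5, 11.9 and 48.3 CPM in floxed controls. Fabp6, the ileal bile acid binding protein, had 185, 213 and 138 CPM in knockouts and 123, 94.1 and 216 CPM in floxed controls. Nr1h4, the bile acid receptor FXR, had a log2 fold change of 0.47 ± 0.24.

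**Figure D3:**
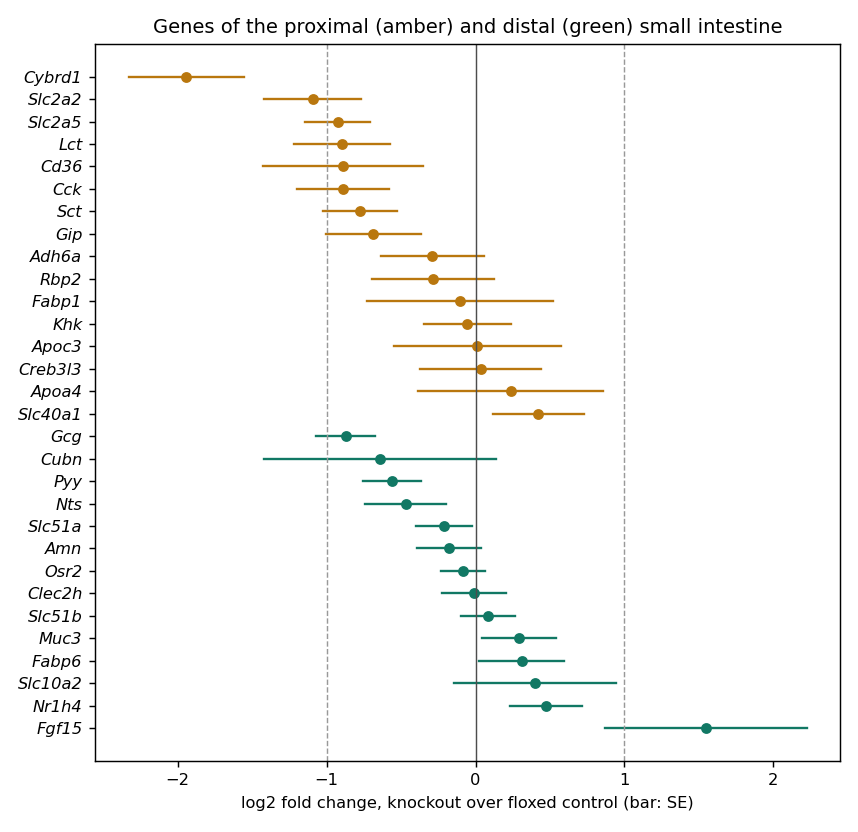
Log2 fold change of knockout over floxed control with SE for 16 genes of the proximal small intestine (amber) and 14 of the distal (green), each sorted by value; dashed lines mark a 2-fold difference. Of the amber points 12 lie below 0, with Cybrd1 lowest, and the green points spread to both sides, with Fgf15 highest.

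Enterocyte genes that CDX2, HNF4 or GATA4 are known to drive had a median log2 fold change of -0.14 over 30 tested, 24 of them negative. Before adjustment 3 were lower and 0 higher at a p under 0.05, against 9.63% and 4.09% of all genes. By edgeR 0 were called and by DESeq2 0. The median was -0.32 without floxed control 2, where edgeR called Sis and Lct lower and 955 of all genes were called. It was 0.0020 without floxed control 3 and 0.26 without floxed controls 1 and 3. Sis, whose promoter is shown above, had 563, 687 and 665 CPM in knockouts and 1228, 503 and 1077 CPM in floxed controls (log2 -0.55 ± 0.30, adjusted p = 0.452 by edgeR). Floxed control 2 lay below each knockout. Besides Lct, the smallest p-values belonged to the brush border peptidase gene Ace (log2 -0.75 ± 0.31), the microvillus bundling gene Espn (-0.63 ± 0.28) and the glucose transporter gene Slc5a1 (-0.38 ± 0.21). Vil1, the microvillus protein villin, had -0.14 ± 0.20.

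The order of the libraries within each group was counted for the members and for the other lists. Within the floxed controls, Cdx1, Cdx2, Gata4 and Hnf4a were highest in floxed control 2, so that 4 of 7 members peaked there, against 39.9% of all genes. Of the 11 general markers of gut epithelium 7 also peaked there, so this order was not particular to the members. Of the 30 enterocyte genes 24 were lowest in that library, as were 11 of the 16 proximal genes, against 35.3% of all genes. Within the knockouts, 5 of 7 members, Gata4 and Onecut2 among them, were lowest in knockout 2, against 33.0% of all genes. Of the 11 epithelial markers 6 were lowest in knockout 2 and 2 were highest in knockout 3. In knockout 3, 4 of 7 members (Cdx2, Gata4, Hnf4g and Onecut2) were highest, as were 14 of 16 proximal genes, against 35.4% of all genes. Of the 30 enterocyte genes 12 (40%) were highest there, near that share, and 13 were highest in knockout 2. These are counts within 3 libraries of a group and carry no test.

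**Figure D4:**
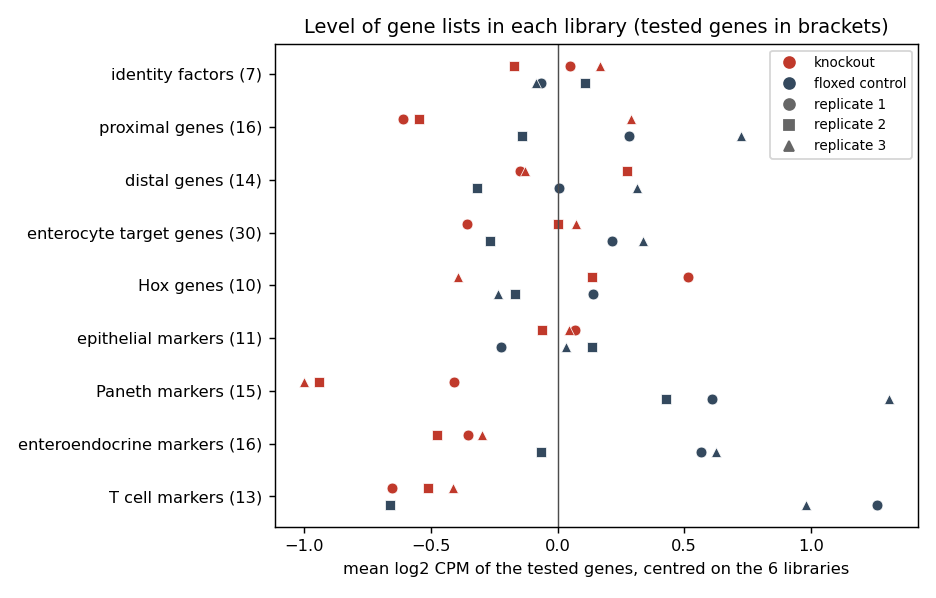
Mean log2 CPM of the tested genes of each list in each library, centred on the 6 libraries, with knockouts in red above floxed controls in dark blue. The identity factors stay between -0.17 and 0.17 in each library, while the Paneth markers run from -1.0004 to 1.31 and separate the groups.

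Of 144 genes in the other lists with an average log2 CPM of at least 3, those nearest to a member over the 6 libraries were found by the root mean square distance of centred log2 CPM. Cdx1 lay nearest to the keratin gene Krt8, at 0.046, and to the claudin gene Cldn7, at 0.051, with a spread of its own of 0.21. Cdx2 lay nearest to the epithelial factor Elf3 (0.10) and to Epcam (0.10), against a spread of 0.13. Gata4 lay nearest to the galectin gene Lgals4 (0.16), against 0.26. Hnf4g lay nearest to Ppara (0.097) and Osr2 (0.113), against 0.103, so that Osr2 was farther than this spread. The nearest genes of Gata6 (Osr2 and Rnf43) and of Hnf4a (Cdca7 and Epcam) were farther from them than these members' own spread, 0.085 and 0.098. Onecut2 had the largest distances of the tested members, with Mttp at 0.43 and Car4 at 0.43, and also the largest spread of its own, 0.54.

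Markers of neighbouring organs were measured as well. Of 12 colonic genes measured, 6 were high enough to test. Of these, 0 had an unadjusted p under 0.05, against 13.7% of all genes. Of 9 stomach genes measured, 4 were tested. Ghrl, the hormone ghrelin, and Gkn3 were lower at an unadjusted p under 0.05 (log2 -0.92 ± 0.33 and -1.04 ± 0.42). Muc6 was higher (log2 1.09 ± 0.49), and 0 passed by edgeR or DESeq2. Of all genes 9.63% were lower and 4.09% higher at that p. Gkn3 had only 12 to 47 counts per library and Muc6 only 4 to 33. The part of the enteroendocrine markers given above in the Ghrl value was not tested. Of 6 pancreas and Brunner gland genes measured, 4 were tested. Clps, the colipase gene, had a log2 fold change of -1.91 ± 0.33 and an adjusted p of 0.068 by edgeR. DESeq2 called it lower, as did edgeR without floxed control 2, where 955 of all genes were called. Clps stood at 246, 169 and 170 CPM in knockouts 1, 2 and 3, against 551, 501 and 1154 CPM in floxed controls. In the same list Cel and Ctrb1 had at most 1 and 2 counts in a library. The part of the Paneth cell markers given above in the Clps value was not tested.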

How the data were processed

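Per the labels' protocols, crypt mRNA was sequenced with 50 bp single-end reads (DNBSEQ). The build is mm10 per the submitters' processing notes; the sources used here do not give the aligner or the counter. The deposited values are the authors' estimated counts, unscaled, of which 31.1% to 35.2% per library were not whole numbers, and they were rounded before the tests. Tests were run in R 4.3.3 with edgeR 4.0.16 (filterByExpr, TMM, glmQLFit with robust estimation, glmQLFTest, Benjamini-Hochberg adjustment over all genes tested). The 95% intervals use the fitted SE and its degrees of freedom (10.7 for the members). Centred log2 CPM used a prior count of 2. Alternatives used DESeq2 1.42.0, limma 3.58.1, other scalings and filters, the replicate number as a block and libraries left out. The fit was tested on simulated counts. Coordinates and exon lengths are from GENCODE M21 (GRCm38, the assembly of mm10). Figures used Python 3.11.15 and matplotlib 3.10.9.

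The members and all 19 gene lists were chosen with earlier results of these data known. Named genes are the members, up to 4 genes of a list with the smallest p, set anchor genes and the genes nearest to a member. Formyl peptide receptor genes and mitochondrial transcripts were not used here, and some genes under this rule are not reported here. No 2 libraries held identical values.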

Additional observations from a re-analysis of the deposited data

How the results depend on the processing

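The count of called members was 0 under each of 16 alternatives, of 8 tested with no filter beyond 1 count and of 7 in the others. The number of all genes called, 2 by edgeR, was 0 with DESeq2 size factors and 0 with TMM without the 50 most abundant genes. It was 67 with no filter beyond 1 count, 342 by DESeq2, 39 with the replicate block, 12 without floxed controls 1 and 3, 920 without floxed control 2 and knockout 1, and 1 with a 2-level term for these same 2 libraries, a split taken from earlier results of these data on clock genes. With 1 library left out it ran from 0 to 955, the highest without floxed control 2. The cause was not tested. Deviations of same-numbered libraries correlated across genes at -0.18, -0.27 and 0.068. The highest correlation between a knockout and a floxed control was 0.38, for knockout 2 and floxed control 1. These values cannot show whether libraries were paired by design. The member count stayed at 0 with the block. The members' median log2 fold change, 0.055, ran from -0.054 to 0.14 with 1 library left out and was -0.049 without floxed controls 1 and 3. Member values near 0 changed sign. Without floxed controls 1 and 3, which leaves 1 control assumed to vary like the knockouts, Cdx1 stood at -0.19, Cdx2 at -0.11, Hnf4a at -0.024 and Hnf4g at 0.11. Hnf4g stood at 0.0038 with DESeq2 size factors, 0.0027 with TMM without the most abundant genes, 0.015 without the filter and 0.0039 by DESeq2. Gata4 stood at 0.085 without floxed control 2 and knockout 1. With 1 library left out, Cdx1 ran from -0.076 to 0.25, Gata4 from -0.30 to 0.055, Hnf4g from -0.069 to 0.093 and Onecut2 from -0.054 to 0.74. Gata6 kept a negative sign under each alternative, from -0.16 to -0.049. Depth limits Pdx1, at 1 to 5 counts per library.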

Other observations

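Hox genes, the homeobox genes whose clusters mark position along the body axis, were detected mainly from the Hoxb cluster. Of 32 Hox genes measured, 10 were high enough to test. Neither edgeR nor DESeq2 called any (0 and 0), and before adjustment 0 had a p under 0.05, against 13.7% of all genes. The median log2 fold change was 0.35, with 7 positive and 3 negative. It was -0.031 at the lowest with 1 library left out. The smallest p-values belonged to Hoxd4, Hoxb6, Hoxb4 and Hoxa2, with log2 fold changes of 0.95 ± 0.44, 0.52 ± 0.30, -0.58 ± 0.36 and 0.71 ± 0.54. Hoxb9, chosen after its values were seen, stood at 27.3, 10.3 and 6.10 CPM in knockouts 1, 2 and 3 and at 12.9, 11.3 and 10.04 CPM in floxed controls 1, 2 and 3. Hoxb6 stood at 14.8, 8.26 and 6.16 CPM in knockouts and at 6.46, 6.95 and 6.99 CPM in floxed controls. Among the knockouts 7 of the 10 genes were highest in knockout 1 and 8 were lowest in knockout 3. Cdx2, Gata4, Hnf4g and Onecut2 were highest of their group in knockout 3, and a link with the Hox values was not tested. Of all genes tested 37.0% were highest in knockout 1 and 33.4% lowest in knockout 3.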
